A study of Mus musculus with 9 samples.

Results

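The genes described here are those of the interferon response and of antigen presentation in the mouse heart. They are 31 genes chosen by name, from interferon regulatory factors to peptide transporters, and every gene whose annotated symbol begins with H2-, the prefix of the mouse major histocompatibility complex (MHC). Of the 31 named genes, 29 had a probe set of their own. Isg15 lay only on a probe set shared with another gene, Ifi44 had no named probe set, and both were not analysed here. With 23 H2 symbols this gave 52 of the 18193 genes tested. A further 11 H2 symbols lay only on probe sets shared between genes and were not used. Of the 52 genes, 37 lay at or above the 40th percentile of mean level over all genes (log2 intensity 6.58) and are called the brighter genes. The other 15 lay below it and are called the dim genes.

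Interferons are cytokines that cells release on sensing viral nucleic acid. Their receptors act through JAK kinases and STAT proteins, and STAT complexes with interferon regulatory factors bind the promoters of antiviral genes. Interferon gamma also raises the MHC genes. MHC class I molecules sit on nearly all cells and show peptides cut by the proteasome, whereas class II molecules show peptides of engulfed proteins and are made chiefly by macrophages, dendritic cells and B cells. In the resting heart, class II transcripts are known mainly from resident macrophages.

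The study compared 3 groups of C57BL/6 mice aged 2 months, with 3 Affymetrix arrays a group, labelled as biological replicates. Mutant right atria came from mice of genotype Myh6-cre; COUP-TFIIflox/flox, in which the cardiomyocyte promoter of Myh6 drives Cre, and Cre removes the floxed gene of COUP-TFII (Nr2f2), a nuclear receptor. Control ventricles and control right atria came from COUP-TFIIflox/flox mice without Cre, so the deletion and the presence of Cre cannot be told apart. Cells other than cardiomyocytes keep Nr2f2 in this model. The chamber comparison asks how the 2 normal chambers differ, and the mutant atrium can be set against both. The comparisons share arrays, since each group enters 2 of them.

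Nr2f2 itself stood at log2 6.82, 6.62 and 6.82 in mutant right atria, 5.96, 5.34 and 5.74 in control ventricles and 7.53, 7.66 and 7.29 in control right atria. It was 1.67-fold lower in mutant than in control right atria (adjusted p = 0.0109). The atrial cardiomyocyte list averaged 13.2 to 13.9 per array in mutant right atria, 7.25 to 8.69 in ventricles and 14.6 in control right atria, which is the order the tissue labels give. The libraries also differed in other ways. A list of 12 hepatocyte genes averaged 5.37 to 5.41 in mutant right atria and 5.26 to 5.37 in ventricles, but 7.34 to 9.79 in control right atria. The 10 mesothelial markers were all lower in mutant right atria (median log2 ratio -1.64) and in ventricles (-2.97) than in control right atria. Of 8 endothelial markers, 2 were lower in mutant right atria and 5 in ventricles than in control right atria, and all 4 ventricular cardiomyocyte markers were higher in mutant than in control right atria (median 3.20). Over all genes, 9.79% were called lower and 7.76% higher in mutant than in control right atria, and 23.6% lower in ventricles. Y-linked transcripts were low and Xist high in all 3 ventricles and in mutant replicate 1, while mutant replicates 2 and 3 had high Y-linked and low Xist levels and the control right atria varied. The log2 difference between the 3' and 5' control probe sets of Gapdh, a sign of RNA quality, was 0.214 to 0.305 in mutant right atria, 0.153 to 0.227 in ventricles and 0.345 to 0.364 in control right atria. The part of these differences in the results below was not tested, except where a value is given.

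The promoters of 39 of the 52 genes were in the RefSeq table (GRCm38.p6), read as the 250 bases before each annotated start. They were searched on both strands for the core of the interferon-stimulated response element, GAAA and GAAA with 2 bases of any kind between them, and for the gamma-activated sequence, TTCNNNGAA, which can overlap. The response element core was in 11 of 39 promoters (28.2%), against 3.5% of the promoters of 27025 genes. All 11 were among the 23 promoters of named genes (47.8%), and it was in 0 of the 16 H2 promoters. These 11 genes were Ifit1, Ifit3, Oas1a, Rsad2, Bst2, Stat2, B2m, Gbp2, Gbp3, Igtp and Irgm1. The gamma-activated sequence was in 8 of 39 (20.5%), against 8.1% of all. A match describes letters only. Below are Ifit2 and Oas1a, the 2 genes with a match that were higher in mutant than in control right atria, then Ifit1 and H2-M3, which have a match and were not called there. Capitals mark the matches.
Ifit2, chr19:34550444-34550693, forward strand: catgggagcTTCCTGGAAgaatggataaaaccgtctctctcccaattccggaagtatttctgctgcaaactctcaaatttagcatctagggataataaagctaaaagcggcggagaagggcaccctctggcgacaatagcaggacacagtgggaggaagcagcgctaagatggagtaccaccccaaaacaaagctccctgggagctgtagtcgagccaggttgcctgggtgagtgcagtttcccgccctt
Oas1a, chr5:120907526-120907775, reverse strand: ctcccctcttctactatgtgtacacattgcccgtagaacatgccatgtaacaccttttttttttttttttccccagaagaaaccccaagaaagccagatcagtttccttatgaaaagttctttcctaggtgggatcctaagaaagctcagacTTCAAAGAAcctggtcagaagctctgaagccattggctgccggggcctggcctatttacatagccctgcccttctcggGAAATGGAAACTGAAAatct
Ifit1, chr19:34640639-34640888, forward strand: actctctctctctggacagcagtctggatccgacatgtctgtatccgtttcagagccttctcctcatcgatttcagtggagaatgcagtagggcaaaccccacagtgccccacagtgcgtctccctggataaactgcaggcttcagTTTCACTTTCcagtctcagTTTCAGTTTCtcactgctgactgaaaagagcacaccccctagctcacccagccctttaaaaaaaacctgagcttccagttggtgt
H2-M3, chr17:37269984-37270233, forward strand: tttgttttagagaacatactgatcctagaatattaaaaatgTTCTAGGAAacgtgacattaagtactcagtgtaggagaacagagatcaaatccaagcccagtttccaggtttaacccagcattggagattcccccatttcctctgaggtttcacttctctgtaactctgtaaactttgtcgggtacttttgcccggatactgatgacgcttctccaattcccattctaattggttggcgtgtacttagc
The Ifit2 match was a gamma-activated sequence beginning 241 bases before the start, and the window of its other annotated start held none. In Oas1a, 2 overlapping response element cores began 20 and 14 bases before the start and a gamma-activated sequence 98 bases before it. In Ifit1, 2 cores, on the opposite strand, began 104 and 85 bases before the start, and in H2-M3 a gamma-activated sequence began 209 bases before it.

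Against control right atria, mutant right atria had 6 genes of the 52 higher and 0 lower at an adjusted p of 0.05 (limma, Benjamini-Hochberg over all genes). The 6 were the antiviral genes Ifit2, Oas1a and Ifi35, the class II genes H2-DMa and H2-Eb1, and H2-Q5, a dim class I gene. Over all genes, 7.76% were called higher and 9.79% lower (17.5% either way), so the share called higher, 11.5%, lay near the background. At an unadjusted p of 0.05, 20 of the 52 were higher and 2 lower, against 2882 and 3006 of the 18193 genes. With array weights 14 of the 52 were called higher and 2 lower. Over all genes 2074 were then called higher, against 1411 without weights. The ratio was positive in 45 of 52 genes, with a median log2 ratio of 0.20 against 0.03 over all genes. All mutant arrays lay above all control arrays in 17 genes and below them in 2, against 18.9% of all genes each way. Over all genes 1411 were called higher with all arrays, 781 without mutant replicate 2 and 903 without control right atrium replicate 2. The count of 6 among the 52 was 3 and 2 in those 2 fits. With the level of the hepatocyte list as a covariate that count was 0, and over all genes 55 were called higher. The median standard error over all genes was then 0.211, against 0.0879 without the covariate. The hepatocyte list averaged 5.37 to 5.41 in mutant and 7.34 to 9.79 in control right atria, without overlap. Ratios of mutant over control right atria with this covariate are therefore extrapolations.

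Against control ventricles, mutant right atria had 14 genes higher and 2 lower. The 14 were Irf1, Ifih1, Ddx58, Oasl2, Ifi35, Rtp4, B2m, H2-Aa, H2-Ab1, H2-D1, H2-DMa, H2-Eb1, H2-K1 and H2-M3, and the 2 were Rsad2 and H2-Ke6. Over all genes, 16.0% were called higher and 16.7% lower (32.7% either way), against 26.9% and 3.85% of the 52. The median log2 ratio was 0.18, against -0.05 over all genes, and over the 37 brighter genes it was 0.33, against 0.00 over all genes as bright. The mutant arrays lay above all ventricle arrays in 21 genes and below them in 3, against 20.5% and 26.8% of all genes. The count of 14 was 9 without mutant replicate 2 and 9 with a covariate of Y-linked genes. Over all genes 2535 and 2338 were then called higher, against 2910.

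Between the control chambers, ventricles had 9 genes higher and 11 lower than right atria. Ifit2, Oas1a, Mx2, Rsad2, H2-Ke6, H2-D4, H2-Oa, H2-Q5 and H2-T18 were higher. Ifih1, Oasl2, Gbp2, H2-Aa, H2-Ab1, H2-D1, H2-DMa, H2-Eb1, H2-K1, H2-Q10 and H2-Q2 were lower. Over all genes, 29.2% were called higher and 23.6% lower (52.8% either way), so the shares of the 52, 17.3% and 21.2%, did not exceed the background. The ventricle arrays lay above all atrial arrays in 11 genes and below them in 14, against 33.0% and 26.7% of all genes. The median log2 ratio was -0.04, against 0.07 over all genes. The count of 9 was 3 without control right atrium replicate 1, 4 without its replicate 2 and 4 without ventricle replicate 1. Over all genes 4050, 4360 and 4528 were then called higher, against 5314. With the hepatocyte covariate all 9 lost the call. The 1 gene then higher was H2-Q10, which is among the 11 above, with its sign reversed (2.04, adjusted p = 0.0267). The 1 gene then lower was Oasl2. Over all genes 1264 were called with this covariate, against 9615 without it. With median centring 15 of the 52 were higher, and over all genes 8799 of 11871 calls were then higher, against 5314 of 9615 without it.

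**Figure D1:**
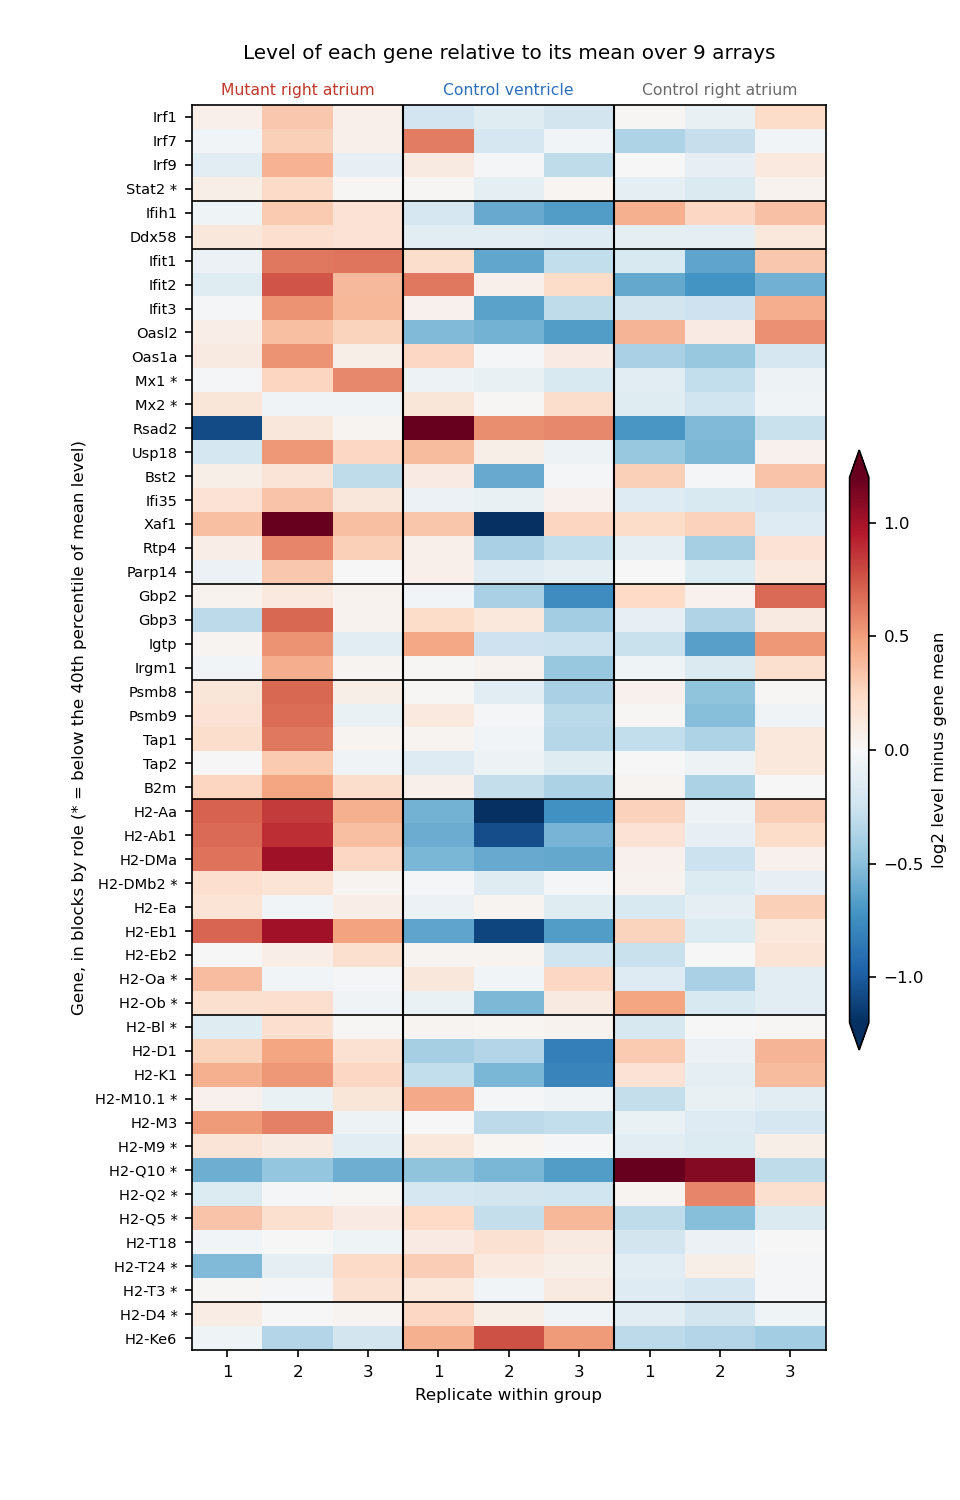
Level of the 52 genes (rows, in blocks by role) on the 9 arrays (columns), as log2 intensity minus the mean of the gene over all arrays, red above and blue below it. The class II genes H2-Aa, H2-Ab1, H2-DMa and H2-Eb1 are red in mutant right atria and blue in ventricles, H2-Q10 is high in control right atrium replicates 1 and 2, and mutant replicate 2 is red across most of the blocks.

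Of the 4 transcription factors, 0 passed between mutant and control right atria. Irf1, a factor that interferon gamma induces, stood at 9.77, 10.03 and 9.76 in mutant right atria, 9.47, 9.56 and 9.48 in ventricles and 9.71, 9.61 and 9.92 in control right atria. Mutant arrays all lay above the ventricles, by a log2 ratio of 0.35 ± 0.10 (SE, adjusted p = 0.0221), and overlapped the control right atria. That call was lost without mutant replicate 2 (adjusted p = 0.0751), without ventricle replicate 1 (0.0622) or 3 (0.0579), with median centring (0.0766) and with the Y-linked covariate (0.144). Irf7, the factor that amplifies the type I interferon response, stood at 6.99, 7.31 and 7.08 in mutant right atria, 7.64, 6.82 and 6.99 in ventricles and 6.65, 6.75 and 6.99 in control right atria. The groups overlapped, with a log2 ratio of mutant over control right atria of 0.33 ± 0.19 (adjusted p = 0.263). Stat2, the partner of Irf9 in the type I response, was dim, at 6.06, 6.22 and 6.01 in mutant right atria, 6.01, 5.88 and 6.01 in ventricles and 5.88, 5.82 and 6.03 in control right atria. The largest log2 ratio of this probe set was 0.19 (mutant over control right atria, adjusted p = 0.151). The other probe set of Stat2, also dim (mean 5.59), was called higher in ventricles than in control right atria (0.47). It was called lower in mutant right atria than in ventricles (-0.36). With the mean of all probe sets, Stat2 in ventricles over control right atria gave 0.26 (adjusted p = 0.0319). Irf9, the DNA-binding partner of Stat2, gave 0.05 for mutant over control right atria (adjusted p = 0.839).

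Both sensors of viral RNA were higher in mutant right atria than in ventricles, and Ifih1 was also lower in ventricles than in control right atria. Ifih1, which senses long double-stranded RNA, stood at 8.58, 8.94 and 8.80 in mutant right atria, 8.43, 8.02 and 7.96 in ventricles and 9.05, 8.88 and 8.98 in control right atria. The ventricles were the lowest group without overlap, by -0.83 ± 0.13 against control right atria (adjusted p = 0.00069), and mutant right atria were 0.64 ± 0.13 above ventricles (adjusted p = 0.00498). The mutant ratio over control right atria was -0.19 (adjusted p = 0.341). With the Y-linked covariate the mutant ratio over ventricles was 0.54 (adjusted p = 0.0509). Ddx58, the RIG-I sensor, stood at 8.58, 8.65 and 8.61 in mutant right atria, 8.31, 8.31 and 8.29 in ventricles and 8.32, 8.33 and 8.57 in control right atria. The mutant arrays were the highest 3 of the 9, at 0.31 ± 0.07 over ventricles (adjusted p = 0.011) and 0.20 ± 0.07 over control right atria (adjusted p = 0.0908, and 0.0188 without control right atrium replicate 3). The call over ventricles was lost with the Y-linked covariate (0.09), when its probe sets were averaged (0.184), when arrays were centred on the median (0.0622) and after a further quantile normalisation (0.0667).

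Among the 14 antiviral effectors measured, 3 were higher and 0 lower in mutant than in control right atria, against 7.76% and 9.79% of all genes. Ifit2, which binds viral RNA and blocks its translation, stood at 8.19, 9.08 and 8.72 in mutant right atria, 8.96, 8.39 and 8.55 in ventricles and 7.72, 7.61 and 7.75 in control right atria. All mutant and all ventricle arrays lay above all control right atria. The mutant level was 1.96-fold that of control right atria (log2 ratio 0.97 ± 0.21, adjusted p = 0.0134) and the ventricle level 1.92-fold (0.94 ± 0.21, adjusted p = 0.0048), and these 2 ratios share the control right atria. Mutant right atria and ventricles differed by 0.03, with a 95% interval of -0.44 to 0.50. The call in mutant right atria held without each of the 9 arrays in turn and was lost with the hepatocyte covariate (log2 ratio 0.90, adjusted p = 0.649).

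Oas1a, an oligoadenylate synthetase that activates RNase L, followed the same order of groups. It stood at 8.24, 8.66 and 8.20 in mutant right atria, 8.37, 8.10 and 8.22 in ventricles and 7.74, 7.68 and 7.93 in control right atria, with no control right atrium array reaching the others. The log2 ratio was 0.58 ± 0.13 for mutant over control right atria (adjusted p = 0.0152) and 0.45 ± 0.13 for ventricles over control right atria (adjusted p = 0.0167). Without control right atrium replicate 1 these adjusted p-values were 0.053 and 0.0518, and without its replicate 2 they were 0.0583 and 0.0598. The call in ventricles was also lost without ventricle replicate 1 (0.06). Ifi35, a regulator of RIG-I signalling, stood at 10.25, 10.42 and 10.21 in mutant right atria, 10.02, 9.99 and 10.14 in ventricles and 9.93, 9.90 and 9.88 in control right atria. On the probe set used, the 3 groups did not overlap and lay in that order. Of its 3 probe sets, 2 were called higher in mutant right atria than in control right atria, and 2 than in ventricles. Ventricles over control right atria ranged from -0.13 to 0.17 between probe sets, with 0 called. The mutant level was 1.31-fold that of control right atria (0.39 ± 0.07, adjusted p = 0.00644), a call lost only with the hepatocyte covariate among the 20 alternatives, and 0.25 ± 0.07 above ventricles (adjusted p = 0.0268). The call over ventricles was kept in 13 of 20 alternatives. It was lost without mutant replicate 2 (0.0963), without ventricle replicate 1 (0.0721) or 2 (0.0822), with median centring (0.12), with the Y-linked covariate (0.126), with the replicate block (0.0536) and with only the groups compared (0.0526).

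Rsad2 and Oasl2 gave the opposite pictures in the ventricle. Rsad2, whose product viperin makes a chain terminator of viral RNA synthesis, stood at 7.18, 8.39 and 8.29 in mutant right atria, 9.54, 8.81 and 8.83 in ventricles and 7.56, 7.73 and 7.99 in control right atria. Ventricles were the highest group without overlap, at 2.47-fold the level of control right atria (1.30 ± 0.31, adjusted p = 0.00656). Mutant right atria were lower than ventricles by -1.11 ± 0.31 (adjusted p = 0.0221, and 0.0769 without ventricle replicate 1). Its 3 probe sets were all called higher in ventricles than in control right atria and lower in mutant right atria than in ventricles. Oasl2, an oligoadenylate synthetase-like protein, stood at 7.12, 7.40 and 7.31 in mutant right atria, 6.51, 6.47 and 6.37 in ventricles and 7.45, 7.13 and 7.59 in control right atria. Ventricles were the lowest group, by -0.94 ± 0.12 against control right atria (adjusted p = 0.000167), and mutant right atria were 0.83 ± 0.12 above them (adjusted p = 0.000615). Both calls held under all 20 alternatives. Mutant over control right atria gave -0.11 (adjusted p = 0.539).

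Mx2, a dynamin-like GTPase, was dim and stood at 6.60, 6.41 and 6.41 in mutant right atria, 6.60, 6.47 and 6.67 in ventricles and 6.31, 6.22 and 6.41 in control right atria. The ventricles lay above the control right atria by 0.27 ± 0.08 (adjusted p = 0.0225), a call lost without control right atrium replicate 1 (0.0561) or 2 (0.0806) and without ventricle replicate 1 (0.0587) or 3 (0.073). Mx1, which is not functional in C57BL/6 mice, was dim at 4.86 to 5.72. Its mutant arrays lay above all others, with a ratio over control right atria of 0.43 ± 0.13 (adjusted p = 0.0508, and 0.0101 without mutant replicate 1). Rtp4, a chaperone that also restrains RNA viruses, stood at 9.58, 10.09 and 9.78 in mutant right atria, 9.57, 9.11 and 9.21 in ventricles and 9.40, 9.11 and 9.68 in control right atria. Mutant arrays lay above the ventricles by 0.52 ± 0.18 (adjusted p = 0.048). It kept that call in 8 of 20 alternatives and lost it without mutant replicate 2 (0.154) or 3 (0.0949), control right atrium replicate 1 (0.0651) or ventricle replicate 2 (0.143) or 3 (0.123). The highest adjusted p was 0.267, with the Y-linked covariate.

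The remaining antiviral genes did not pass in any comparison. Ifit1, with 2 response element cores in the promoter shown above, stood at 7.63, 8.33 and 8.35 in mutant right atria, 7.91, 7.07 and 7.40 in ventricles and 7.52, 7.06 and 8.02 in control right atria. Its ratio of mutant over control right atria was 0.57 ± 0.29 (adjusted p = 0.203), and that of Usp18, the protease that removes ISG15 from proteins, was 0.50 ± 0.21 (adjusted p = 0.132). The within-group spread of Ifit1 gave a residual SD of 0.44, against a median of 0.10 over all genes as bright. Ifit3 gave 0.32, Parp14 0.10 and Bst2, which tethers budding virus, -0.23 in the same comparison. Xaf1, a pro-apoptotic interferon target, stood at 9.55, 6.20 and 9.47 in ventricles, against 9.06 to 10.58 in the atria. Its other probe set read 8.74 in the ventricle replicate that read 6.20, within the 8.28 to 8.74 of all arrays, so the low value belongs to 1 probe set.

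Of the 4 interferon-inducible GTPases, which attack the vacuoles of intracellular parasites, 0 passed between mutant and control right atria. Gbp2 stood at 10.18, 10.25 and 10.18 in mutant right atria, 10.10, 9.74 and 9.39 in ventricles and 10.37, 10.18 and 10.82 in control right atria. Ventricles were below control right atria without overlap, by -0.72 ± 0.19 (adjusted p = 0.0109), a call lost with the Y-linked covariate (0.0718) and the hepatocyte covariate (0.0945). Its 2 probe sets were both called lower there. Mutant over ventricles gave 0.46 ± 0.19 (adjusted p = 0.092, and 0.0278 without ventricle replicate 1). For Gbp3, Igtp and Irgm1, the mutant ratios over control right atria were 0.26, 0.28 and 0.15 with adjusted p-values of 0.507, 0.554 and 0.553.

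The 5 genes that supply peptides to class I molecules had positive ratios of mutant over control right atria, with a median of 0.43. After adjustment 0 passed, and 3 had an unadjusted p under 0.05. The 5 are the immunoproteasome subunits Psmb8 (0.44 ± 0.19, adjusted p = 0.151) and Psmb9 (0.43 ± 0.20, 0.172), the peptide transporters Tap1 (0.47 ± 0.18, 0.101) and Tap2 (0.07 ± 0.10, 0.66), and B2m, the light chain of class I molecules. B2m stood at 13.51, 13.73 and 13.46 in mutant right atria, 13.31, 12.97 and 12.87 in ventricles and 13.28, 12.87 and 13.25 in control right atria. The 3 mutant arrays were the highest of the 9, at 0.43 ± 0.14 over control right atria (adjusted p = 0.071, and 0.0469 without ventricle replicate 1) and 0.52 ± 0.14 over ventricles (adjusted p = 0.0217). The call over ventricles was lost without mutant replicate 2 (0.0755) and without ventricle replicate 2 (0.0673) or 3 (0.0746), and with the Y-linked covariate (0.0717). Tap1 over control right atria passed without control right atrium replicate 3 (0.0445), and its 3 other probe sets gave -0.05 to -0.01.

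The class II genes gave the 4 largest log2 ratios of mutant right atria over ventricles among the 16 genes called there. H2-Eb1, the beta chain of the E molecule, stood at 11.81, 12.12 and 11.59 in mutant right atria, 10.48, 10.01 and 10.44 in ventricles and 11.38, 10.94 and 11.24 in control right atria. The 3 groups did not overlap. Mutant right atria were 2.89-fold above ventricles (1.53 ± 0.17, adjusted p = 0.000134), 1.57-fold above control right atria (0.65 ± 0.17, adjusted p = 0.0281), and ventricles were below control right atria by -0.88 ± 0.17 (adjusted p = 0.00212). The call over control right atria was lost without mutant replicate 1 (0.0565) or 2 (0.092) and without control right atrium replicate 2 (0.0962) or 3 (0.0515), and with the hepatocyte covariate (0.659).

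H2-DMa, a chain of the molecule that loads peptides onto class II, stood at 8.54, 8.91 and 8.14 in mutant right atria, 7.34, 7.28 and 7.28 in ventricles and 7.94, 7.63 and 7.94 in control right atria. The groups again lay apart in that order of levels, mutant right atria above control right atria above ventricles. The log2 ratio was 0.69 ± 0.17 over control right atria (adjusted p = 0.0217) and 1.23 ± 0.17 over ventricles (adjusted p = 0.000474). The call over control right atria was lost without mutant replicate 1 (0.0501) or 2 (0.0502) and without control right atrium replicate 2 (0.0785), with only the groups compared (0.0517) and with the hepatocyte covariate (0.736). Ventricles were below control right atria by -0.54 ± 0.17 (adjusted p = 0.0236), a call kept in 10 of 20 alternatives and lost without control right atrium replicate 1 (0.0764) or 3 (0.0657) and without ventricle replicate 2 (0.0572) or 3 (0.059). The other probe set of H2-DMa was dim (mean 5.64) and was not called in any comparison. It gave 0.38 for mutant over control right atria, 0.30 for mutant right atria over ventricles and 0.07 for ventricles over control right atria.

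H2-Aa and H2-Ab1, the chains of the A molecule, had the same order of groups. H2-Aa stood at 12.99, 13.12 and 12.71 in mutant right atria, 11.72, 11.08 and 11.55 in ventricles and 12.56, 12.22 and 12.58 in control right atria. H2-Ab1 stood at 10.94, 11.15 and 10.63 in mutant right atria, 9.67, 9.20 and 9.71 in ventricles and 10.44, 10.16 and 10.49 in control right atria. Neither gene overlapped between groups. Over ventricles, mutant right atria were 2.81-fold higher for H2-Aa (adjusted p = 0.00018) and 2.61-fold higher for H2-Ab1 (adjusted p = 0.000225). Ventricles were 2.00-fold lower than control right atria for H2-Aa (adjusted p = 0.00111) and 1.79-fold lower for H2-Ab1 (adjusted p = 0.00255). Over control right atria the mutant ratios, 0.49 ± 0.17 for H2-Aa (adjusted p = 0.0842) and 0.55 ± 0.17 for H2-Ab1 (adjusted p = 0.0515), missed the threshold. Without ventricle replicate 2, whose spread enters the fit, they were called (0.0399 and 0.0298), as was H2-Ab1 without mutant replicate 3 (0.0346). With the mean of all probe sets H2-Aa passed too (0.0412). H2-Ab1 also passed with 6 of the other alternatives, from 0.0307 with the mean of all probe sets to 0.047 with only the groups compared. All 4 probe sets of H2-Aa and all 3 of H2-Ab1 were called higher in mutant right atria than in ventricles and lower in ventricles than in control right atria, and 2 of each were called in mutant over control right atria.

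The other class II genes were flat or dim. H2-Ea, whose promoter is deleted in the haplotype of C57BL/6, stood at 6.84 to 7.32 in all 9 arrays and H2-Eb2 at 6.93 to 7.39. H2-Oa, a chain of the molecule that restrains peptide loading, was dim at 5.83, 5.43 and 5.45 in mutant right atria, 5.60, 5.43 and 5.72 in ventricles and 5.31, 5.08 and 5.34 in control right atria. It was called higher in ventricles than in control right atria (0.34 ± 0.13, adjusted p = 0.0458), but kept this call in 3 of 9 fits with an array left out, with 0.154 as the highest adjusted p of these (without control right atrium replicate 2). With the Y-linked covariate the ratio was 0.10 (adjusted p = 0.546), with the hepatocyte covariate 0.21 (0.817), and after quantile normalisation 0.21 (0.177). H2-Ob and H2-DMb2 did not pass in any comparison.

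**Figure D2:**
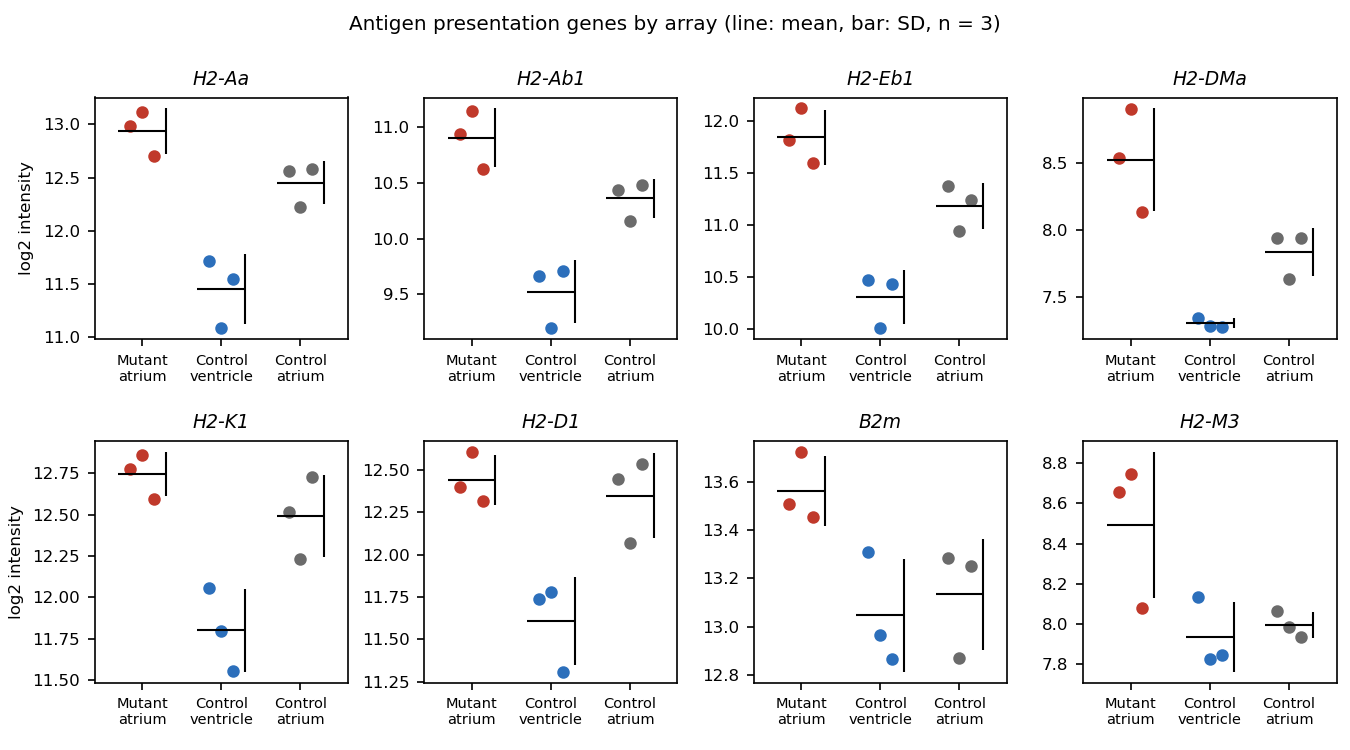
Log2 intensity of 8 antigen presentation genes by array, with a line at the mean and a bar of 1 SD (n = 3 arrays a group) for mutant right atria, control ventricles and control right atria. For H2-Aa, H2-Ab1, H2-Eb1 and H2-DMa the 3 groups do not overlap, with mutant right atria highest and ventricles lowest. For H2-K1 and H2-D1 the ventricles lie below both atrial groups, which overlap.

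The classical class I genes H2-K1 and H2-D1 were lower in ventricles than in both atrial groups. H2-K1 stood at 12.78, 12.86 and 12.60 in mutant right atria, 12.05, 11.80 and 11.55 in ventricles and 12.52, 12.23 and 12.73 in control right atria. Ventricles were the lowest group, at 1.92-fold below mutant right atria (mutant over ventricle 0.94 ± 0.15, adjusted p = 0.00117) and by -0.69 ± 0.15 against control right atria (adjusted p = 0.00425). H2-D1 stood at 12.40, 12.61 and 12.32 in mutant right atria, 11.74, 11.78 and 11.31 in ventricles and 12.44, 12.07 and 12.54 in control right atria. Its ratios were 0.83 ± 0.15 for mutant right atria over ventricles (adjusted p = 0.00282) and -0.74 ± 0.15 for ventricles over control right atria (adjusted p = 0.00337). Mutant over control right atria gave 0.25 (adjusted p = 0.272) and 0.09 (adjusted p = 0.713), and the arrays overlapped. With the mean of all probe sets, ventricles over control right atria gave -0.26 for H2-K1, which lost its call (adjusted p = 0.0751), and -0.25 for H2-D1, which kept it. Mutant right atria over ventricles then gave 0.53 for H2-K1 and 0.38 for H2-D1, both still called. Class I genes are close copies of each other, so probes may read several of them. Of 9 probe sets of H2-D1, 4 were higher and 0 lower in mutant right atria than in ventricles, and between control chambers 1 was higher and 3 lower in ventricles. Of 4 probe sets of H2-K1, 2 were called in each of these comparisons, higher in mutant right atria over ventricles and lower in ventricles, and 1 was called higher in mutant over control right atria.

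H2-M3, which presents formylated bacterial peptides, stood at 8.66, 8.75 and 8.08 in mutant right atria, 8.14, 7.83 and 7.85 in ventricles and 8.06, 7.99 and 7.94 in control right atria. Mutant replicates 1 and 2 lay apart from the other arrays and replicate 3 did not. The mutant ratio was 0.50 ± 0.16 over control right atria (adjusted p = 0.0615, and 0.00447 without mutant replicate 3) and 0.56 ± 0.16 over ventricles (adjusted p = 0.0249). The call over ventricles was lost without mutant replicate 1 (0.0805) or 2 (0.0856) and without ventricle replicate 2 (0.0773) or 3 (0.0744), and was kept in 13 of 20 alternatives. H2-Q5, a dim class I gene, stood at 5.39, 5.24 and 5.15 in mutant right atria, 5.29, 4.76 and 5.44 in ventricles and 4.75, 4.54 and 4.88 in control right atria. It passed in mutant over control right atria (0.54 ± 0.16, adjusted p = 0.0497) and in ventricles over control right atria (0.44 ± 0.16, adjusted p = 0.0447). Each call was kept in 8 of 19 alternatives, and in 2 of 9 fits with an array left out, with 0.154 as the highest adjusted p of such a fit for mutant right atria (without control right atrium replicate 2) and 0.15 for ventricles (without ventricle replicate 3). H2-T18 was 0.23 ± 0.07 higher in ventricles than in control right atria (adjusted p = 0.0188), at 7.37, 7.46 and 7.38 against 7.06, 7.20 and 7.27. It was lost without control right atrium replicate 1 (0.0627) or ventricle replicate 2 (0.0597).

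H2-Q10, a class I molecule that the liver secretes, stood at 4.16, 4.28 and 4.16 in mutant right atria, 4.27, 4.20 and 4.07 in ventricles and 7.29, 5.85 and 4.44 in control right atria. It was low in 6 arrays, high in control right atrium replicate 1, lower in its replicate 2 and near the other groups in its replicate 3. Ventricles over control right atria gave -1.68 ± 0.54 (adjusted p = 0.0258) and mutant over control right atria -1.66 ± 0.54 (adjusted p = 0.0624, and 0.00308 without control right atrium replicate 3). Albumin (Alb), a liver transcript, stood at 4.95, 4.68 and 5.22 in mutant right atria, 5.03, 5.02 and 5.38 in ventricles and 12.25, 10.81 and 8.73 in control right atria. Serpina1c, another one, stood at 11.89, 11.46 and 9.32 in control right atria and at most 5.26 elsewhere. The 3 genes thus ranked the control right atria in the same order. With the hepatocyte list as a covariate the ratio of H2-Q10 in ventricles over control right atria was 2.04 (adjusted p = 0.0267), the opposite sign. That list averaged 7.34 to 9.79 in control right atria and 5.26 to 5.37 in ventricles, without overlap. The adjusted ratio is therefore an extrapolation, and no conclusion is drawn from its sign. The call of H2-Q10 as lower in ventricles was also lost without control right atrium replicate 2 (0.0615) and without ventricle replicate 1 (0.0557), 2 (0.0574) or 3 (0.0658). H2-Q2, a dim class I gene, stood at 3.35, 3.51 and 3.53 in mutant right atria, 3.32, 3.30 and 3.28 in ventricles and 3.55, 4.11 and 3.71 in control right atria. It was lower in ventricles than in control right atria (-0.49 ± 0.12, adjusted p = 0.00889), a call lost with the Y-linked (0.133) and the hepatocyte covariate (0.464).

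**Figure D3:**
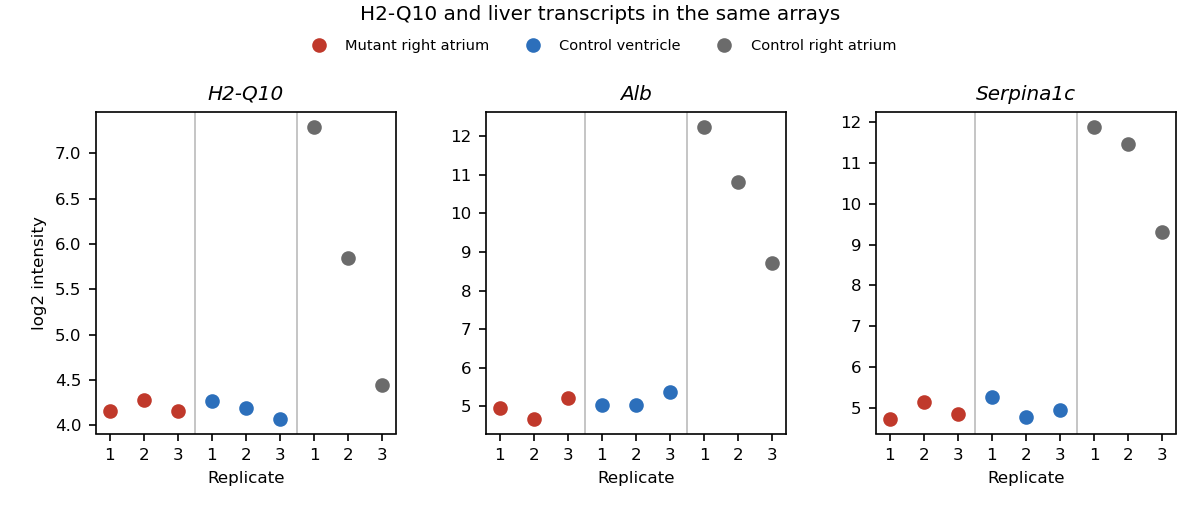
Log2 intensity of H2-Q10 and of the liver transcripts Alb and Serpina1c on each of the 9 arrays, coloured by group. All 3 are low in mutant right atria and ventricles and rank the 3 control right atria alike, with Alb at 12.25 in replicate 1 and 8.73 in replicate 3.

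The H2 prefix also took in 2 genes with other or unplaced roles. H2-Ke6, which lies in the MHC region and encodes a hydroxysteroid dehydrogenase rather than an MHC molecule, stood at 10.23, 9.94 and 10.07 in mutant right atria, 10.72, 11.05 and 10.80 in ventricles and 9.97, 9.93 and 9.87 in control right atria. The ventricles were the highest group without overlap, at 1.90-fold the level of control right atria (0.93 ± 0.10, adjusted p = 6.70e-05), and mutant right atria were below them by -0.78 ± 0.10 (adjusted p = 0.000362). H2-D4 was dim, at 4.95, 4.86 and 4.90 in mutant right atria, 5.11, 4.93 and 4.81 in ventricles and 4.74, 4.64 and 4.81 in control right atria. It was called higher in ventricles than in control right atria (0.22 ± 0.08, adjusted p = 0.0494) and kept the call in 5 of 19 alternatives, with 0.159 as the highest adjusted p with an array left out (without ventricle replicate 1).

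**Figure D4:**
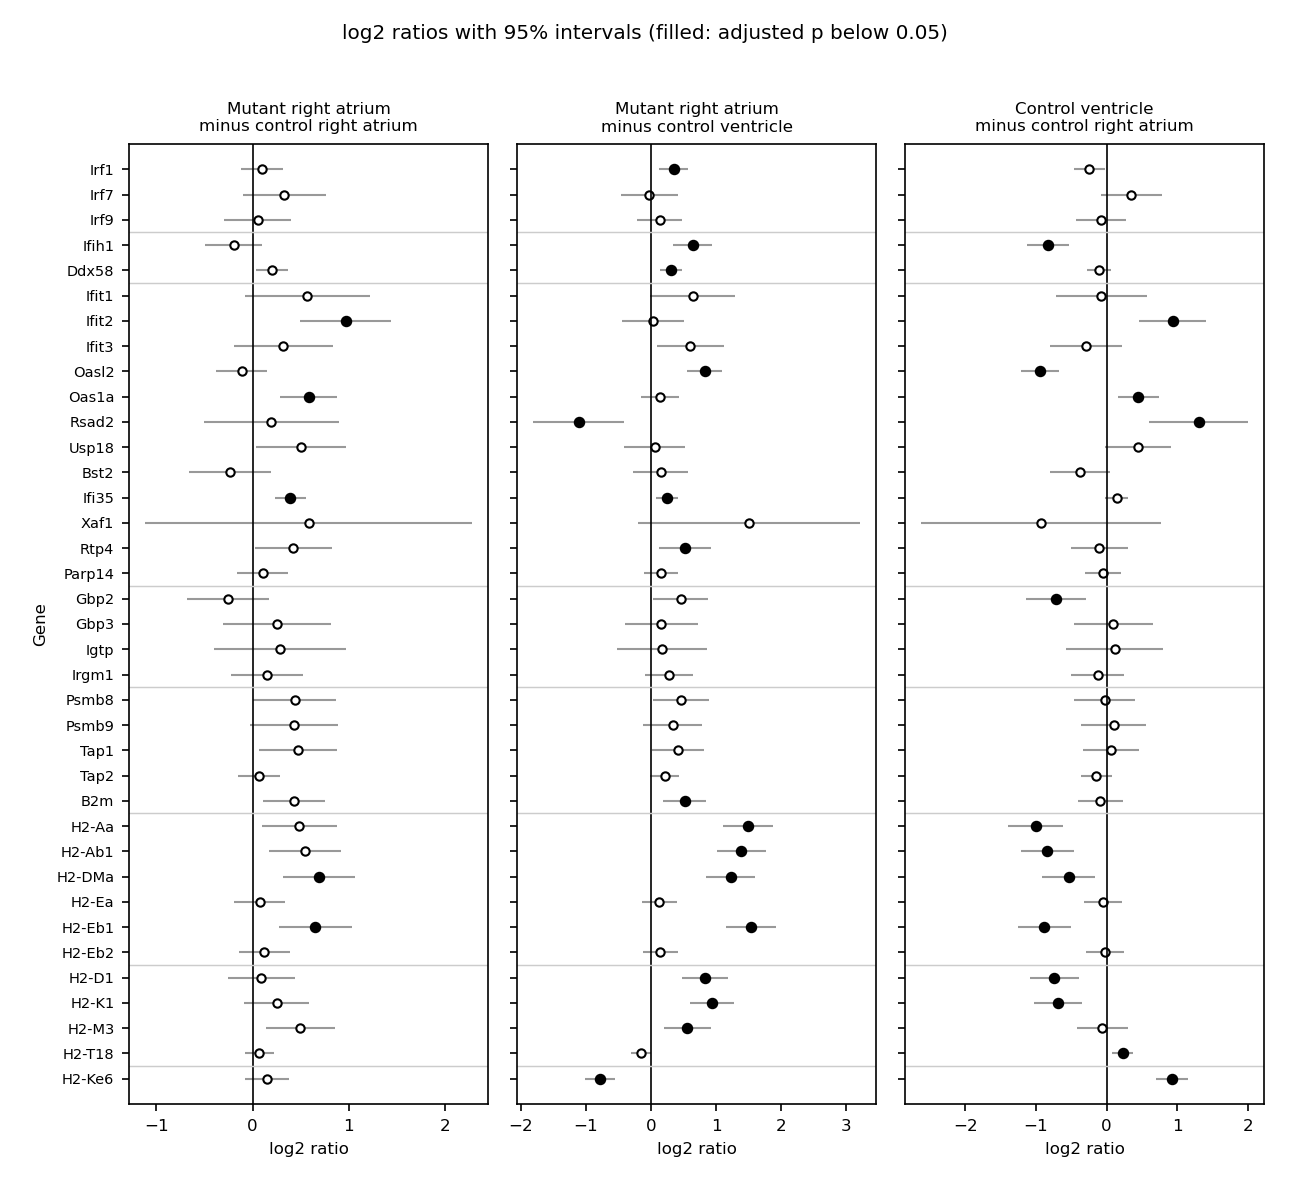
Log2 ratio with its 95% interval for the 37 brighter genes in each comparison, with filled points for an adjusted p under 0.05 and grey lines between roles. In mutant over control right atria 5 of 37 points (13.5%) are filled, all to the right of 0. Over all genes as bright, 9.88% were called higher and 14.1% lower there. In mutant right atria over ventricles 14 (37.8%) are filled to the right and 2 (5.41%) to the left, against 23.5% and 20.0% of all genes as bright. Among the filled points H2-Eb1, H2-Aa and H2-Ab1 reach furthest to the right.

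Within groups, the brighter genes moved together from array to array. Mutant replicate 2 was the highest of the 3 mutant arrays in 33 of the 37 brighter genes (89.2%), against 31.3% of all 10916 genes as bright. Its median deviation from the group mean was 0.23. Ventricle replicate 1 was the highest ventricle in 28 of 37 (75.7%, against 32.8%). Among control right atria, replicate 3 was the highest in 27 of 37 (73.0%, against 26.4%) and replicate 2 the lowest in 27 of 37 (73.0%, against 24.7%). The median residual SD was 0.24 in these 37 genes, against 0.10 over all genes as bright. Mutant replicate 2 also had the highest mean of the macrophage list among the 9 arrays.

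**Figure D5:**
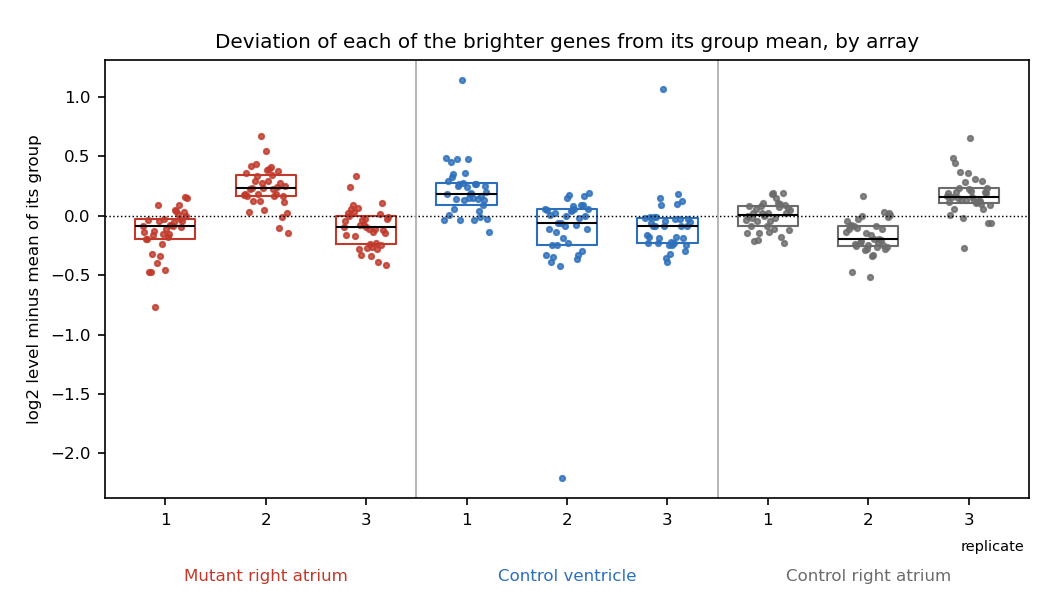
Deviation of each of the 37 brighter genes from the mean of its group (points), for the 3 arrays of each group, with a box from the lower to the upper quartile and a line at the median. Mutant replicate 2 (median 0.23), ventricle replicate 1 (0.18) and control right atrium replicate 3 (0.16) lie above 0, and control right atrium replicate 2 (-0.19) lies below it. The point at the bottom of ventricle replicate 2 is Xaf1.

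Markers of immune cells were read on the same arrays. The 15 macrophage and monocyte markers averaged 9.02, 9.65 and 9.34 in mutant right atria, 8.63, 8.12 and 8.29 in ventricles and 8.85, 8.78 and 8.89 in control right atria. Their summed intensity was 19096 to 26823 in mutant right atria, 9023 to 13364 in ventricles and 16269 to 17483 in control right atria. In mutant over control right atria 7 of 15 were higher and 0 lower (7.76% and 9.79% of all genes). In mutant right atria over ventricles 12 were higher and 0 lower (16.0% and 16.7% of all genes). In ventricles over control right atria 0 were higher and 6 lower (29.2% and 23.6% of all genes). Csf1r, the receptor for the macrophage growth factor, was 0.38 ± 0.09 higher in mutant than in control right atria (adjusted p = 0.0188) and 1.39 ± 0.09 higher than in ventricles (adjusted p = 6.51e-06). The 6 fibroblast markers averaged 11.88 to 11.90 in mutant right atria, 10.72 to 10.97 in ventricles and 11.59 to 11.71 in control right atria. Of these, 5 of 6 were higher in mutant right atria than in ventricles, against 16.0% of all genes. Both lists thus had the same order of groups as the class II genes, and their part in these differences was not tested. In whole tissue, fewer cells of a type and less RNA per cell cannot be told apart. The lists of dendritic cells, T cells, B cells, NK cells and neutrophils averaged 5.12 to 6.13 on all arrays, below the 40th percentile of all genes. In mutant over control right atria, 1 of 8 dendritic cell, 2 of 8 T cell and 0 of 15 B cell, NK cell and neutrophil markers were higher. Of these lists' markers 0 were lower, and over all genes 7.76% were higher and 9.79% lower.

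Other genes of the pathway were read from lists. Of 16 interferon ligands, receptors and proximal signalling genes, 3 were higher and 4 lower in mutant than in control right atria, against 7.76% and 9.79% of all genes. The feedback inhibitor Socs3 (-0.91, adjusted p = 0.0057) and the kinases Jak1 (-0.47, 0.0129) and Jak2 (-0.30, 0.00828) were lower, and Ifngr2, a chain of the interferon gamma receptor, was higher (0.34, 0.0078). In mutant right atria over ventricles 5 were higher and 3 lower (16.0% and 16.7% of all genes), and in ventricles over control right atria 2 were higher and 7 lower (29.2% and 23.6% of all genes). In ventricles against control right atria, Ifngr2 was higher (1.00, adjusted p = 2.67e-06) and Ifnar2, a chain of the type I receptor, was lower (-0.46, 0.000181). Of 18 nucleic acid sensors and adaptors, 2 were higher and 1 lower in mutant than in control right atria (7.76% and 9.79% of all genes). The RNA receptor Tlr7 (0.53, adjusted p = 0.00755) and the DNA sensing adaptor Sting1 (0.42, 0.0189) were higher, and the RNA editing enzyme Adar (-0.35, 0.00445) was lower. The ratio was positive in 15 of the 18, with a median of 0.13, against 0.03 over all genes. In mutant right atria over ventricles 4 were higher and 2 lower (16.0% and 16.7% of all genes), with Tlr3 at 0.69 (adjusted p = 8.30e-05). In ventricles over control right atria 4 were higher and 3 lower (29.2% and 23.6% of all genes).

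Of 48 other interferon-induced genes, 6 were higher and 1 lower in mutant than in control right atria, against 7.76% and 9.79% of all genes, with a median log2 ratio of 0.12. Cxcl9, a chemokine that interferon gamma induces, stood at 7.78, 8.42 and 7.55 in mutant right atria, 8.16, 7.64 and 7.37 in ventricles and 6.31, 6.08 and 7.24 in control right atria. It was 1.37 ± 0.33 higher in mutant right atria (adjusted p = 0.0199) and 1.18 ± 0.33 higher in ventricles (adjusted p = 0.0138) than in control right atria. Ifi203 (0.35, adjusted p = 0.00848) and Ms4a4c (0.27, 0.0129) were also higher in mutant than in control right atria, and Pml, the organiser of nuclear bodies, was lower (-0.62, 0.000482). In mutant right atria over ventricles 12 were higher and 4 lower (16.0% and 16.7% of all genes), led by Pml (0.75, adjusted p = 4.78e-05), and the GTPase Gbp6 was among the lower ones (-1.18, 0.000781). In ventricles over control right atria 12 were higher and 9 lower (29.2% and 23.6% of all genes).

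Of 27 other antigen processing and presentation genes, 5 were higher and 3 lower in mutant than in control right atria (7.76% and 9.79% of all genes), with a median log2 ratio of 0.04. Higher were Hfe, an MHC-like regulator of iron uptake (1.44 ± 0.09, adjusted p = 1.46e-05), the costimulator Cd86 (0.61, 0.00772), the immunoproteasome subunit Psmb10 (0.47, 0.00964) and Ciita, the master regulator of class II genes (0.26 ± 0.07, 0.0364). The class II promoter factor Rfxank was lower (-0.56, 0.0061). Ciita was dim, at 5.71, 5.73 and 5.56 in mutant right atria, 5.52, 5.53 and 5.38 in ventricles and 5.43, 5.36 and 5.45 in control right atria. Cd74, the invariant chain that escorts class II molecules, stood at 10.91, 11.21 and 10.63 in mutant right atria, 9.62, 9.14 and 9.51 in ventricles and 10.47, 10.18 and 10.49 in control right atria. It lay in the order of H2-Aa and H2-Ab1, at 1.49 ± 0.17 for mutant right atria over ventricles (adjusted p = 0.000141) and 0.54 ± 0.17 over control right atria (adjusted p = 0.0543). Nlrc5, a regulator of class I genes, gave 0.56 ± 0.31 for mutant over control right atria (adjusted p = 0.243), with 8.21 in mutant replicate 2 against 7.12 and 7.22 in the other mutant arrays. In mutant right atria over ventricles 13 of 27 were higher and 5 lower, against 16.0% and 16.7% of all genes. In ventricles over control right atria 6 of 27 were higher and 12 lower, against 29.2% and 23.6% of all genes.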

How the data were processed

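RNA of 9 heart samples was labelled by 3' in vitro transcription and hybridised to Affymetrix arrays. The authors deposited a linear intensity for each probe set, summarised with RMA per the submitters' processing notes, with the version and genome build not given in the sources used here. RMA corrects background and equalises arrays by quantiles, which can compress ratios of dim and of very bright probe sets. The log2 of the deposited intensity was taken, with no further normalisation. Of 45101 probe sets, 64 controls, 932 that named several genes and 9160 that named none were dropped, and the probe set with the highest mean stood for each of 18193 genes. All 9 arrays entered 1 limma 3.58.1 fit (R 4.3.3, lmFit and eBayes, 6 residual and 3.48 prior degrees of freedom), with a mean per group and 2-sided tests adjusted over all genes. The number of arrays limits the precision.

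The genes and lists were chosen with earlier results of these data known. Any of the 52 genes may be named. Up to 4 genes past the threshold per role and comparison with the largest ratios get values by array, as do 8 genes in any case, and up to 4 genes of each other list per comparison with the smallest p are named. On simulated data, 74 of 100 genes changed 1.5-fold and 95 of 100 changed 2-fold were recovered between mutant and control right atria, with 5 false calls among 18193 genes. The changed genes were drawn from all genes, with noise independent between genes. The median residual SD was 0.11 over all genes and 0.23 in the 52, so these rates do not give the recovery for the 52. Alternatives tried were a replicate block, a variance trend with intensity, no dim genes, quantile normalisation, median centring, other uses of probe sets, fits of only the groups compared, array weights, Y-linked and hepatocyte covariates, stricter thresholds and leaving out each array. Sequences are RefSeq's (GRCm38.p6). Figures used Python 3.11.15, pandas 2.3.3 and matplotlib 3.10.9.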

Additional observations from a re-analysis of the deposited data

How the results depend on the processing

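With 3 arrays a group, leaving out 1 array moved the number of genes called from 2 to 8 for higher and 0 to 1 for lower (6 and 0 with all arrays) in mutant over control right atria. The ranges were 9 to 15 and 1 to 3 (14 and 2) in mutant right atria over ventricles, and 3 to 10 and 9 to 12 (9 and 11) in ventricles over control right atria. Without control right atrium replicate 1 or 3, 1 gene was lower in mutant right atria, and without ventricle replicate 1, 1 was lower in mutant right atria than in ventricles. Array weights gave 14 higher and 2 lower in mutant over control right atria, while 4538 of all genes were called, against 3192 without them. The hepatocyte covariate gave 0 higher in mutant over control right atria. In ventricles over control right atria it gave 1 higher, H2-Q10 with its sign reversed, and 1 lower, Oasl2. Over all genes 86 and 1264 were then called in these comparisons, against 3192 and 9615. The Y-linked covariate gave 9 higher in mutant right atria over ventricles. In ventricles over control right atria, leaving out the dim genes gave 5 higher and median centring 15. Median centring moved the median of all genes there from 0.07 to 0.21, and 8799 of 11871 calls were then higher, against 5314 of 9615. An adjusted p of 0.01 left 1 higher in mutant over control right atria, 8 higher and 1 lower in mutant right atria over ventricles and 3 higher and 8 lower in ventricles over control right atria. A 1.5-fold minimum left 3 higher, 8 higher, and 3 higher and 9 lower in the same comparisons. H2-Ea in ventricles over control right atria reversed to 0.17 (adjusted p = 0.0464) with the mean of all probe sets, and with the hepatocyte covariate H2-Q10 reversed to 2.04 (0.0267) and H2-T18 to -0.032 (0.948). The levels of the hepatocyte list in control right atria do not overlap those in ventricles or in mutant right atria. Ratios over control right atria with that covariate are therefore extrapolations. Of 3075 values of single genes under the alternatives, 142 lost the threshold and 68 gained it without a change of sign. A further 171 changed sign, 168 of them where neither value passed. The causes were not tested. The calls in mutant right atria over ventricles of Oasl2, H2-Aa, H2-Ab1, H2-D1, H2-DMa, H2-Eb1, H2-K1 and H2-Ke6 held under all 20 alternatives.

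No label pairs the samples by replicate number. Deviations of equally numbered arrays correlated at -0.10 to 0.12. Unequally numbered arrays were not compared, so these values cannot show whether the samples are paired. With the replicate block, 7 genes were higher and 0 lower in mutant over control right atria, 12 and 2 in mutant right atria over ventricles, and 9 and 11 in ventricles over control right atria.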
